A study of Mus musculus with 4 samples.

Results

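The genes described here are 37 genes of the NF-kB pathway and the response to tumour necrosis factor (TNF), chosen by name: the subunits of the factor, the kinases and inhibitors that control it, and targets other than chemokines. All 37 are listed in the deposited table, and 34 of them have values, out of 12578 genes with values in all. Il1b, Il6 and Tnf, which encode the inflammatory cytokines interleukin-1 beta, interleukin-6 and TNF, are listed without values. Messenger RNA was measured in MC38/gp100, a mouse cancer line. MC38 derives from a colon adenocarcinoma of C57BL/6 mice, and gp100 is a melanocyte antigen encoded by Pmel. Control cells received the solvent DMSO for 5 days. The other cells received 1 µM GSK3368712 for 5 days, a compound that inhibits type I protein arginine methyltransferases (PRMTs). Each group has 2 libraries. The libraries are called A and B after the table's columns. The labels name no TNF or other cytokine added to either group. Whether libraries of the same group are separate cultures is not stated, so p-values measure the spread between these libraries, which may be technical.

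NF-kB is a family of dimeric transcription factors that wait in the cytoplasm bound to IkB proteins. When TNF, interleukin-1 or a microbial product binds its receptor, adaptors and ubiquitin ligases recruit the IKK complex, whose kinases mark IkB for destruction and free the dimer to enter the nucleus. Among the genes it then switches on are its own inhibitors, Nfkbia and Tnfaip3, which end the response. Type I PRMTs place asymmetric dimethylarginine on proteins. PRMT1 and CARM1 have been described as coregulators of NF-kB, and the RelA subunit and the adaptor TRAF6 as proteins methylated by PRMT1. The comparison asks which transcripts of this pathway differ after sustained type I PRMT inhibition.

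NF-kB dimers bind 10-base sites in DNA known as the kB consensus. RefSeq promoter windows, which run from 250 bases before a gene's start to 50 bases after it, were found for 32 of the 37 genes and not for Ikbkb, Nfkb1, Nfkbiz, Relb and Vcam1. The kB consensus, searched on both strands, occurs in at least 1 window of 15 of these 32 genes (46.9%) and of 2581 of all 27025 genes with a window (9.55%). Among tested genes with a window the shares were 58.3% of 24 members and 12.6% of 6884 genes. The list was made by name and includes NF-kB targets, so a higher share may follow from that choice. The windows below are those of the 4 genes whose unadjusted p was under 0.05, shown so that the sites can be read beside the values. Each is written 5′ to 3′ along the gene's strand, with the bases of kB matches in capitals.
Nfkbia, GRCm38.p6 chr12:55492598-55492897, minus strand: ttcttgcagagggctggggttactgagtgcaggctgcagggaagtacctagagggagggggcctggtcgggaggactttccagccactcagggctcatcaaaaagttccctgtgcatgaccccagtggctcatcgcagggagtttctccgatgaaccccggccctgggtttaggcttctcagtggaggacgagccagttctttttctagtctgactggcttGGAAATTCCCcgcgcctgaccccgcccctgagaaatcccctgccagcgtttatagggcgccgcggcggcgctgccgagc
Nfkb2, GRCm38.p6 chr19:46304487-46304786, plus strand: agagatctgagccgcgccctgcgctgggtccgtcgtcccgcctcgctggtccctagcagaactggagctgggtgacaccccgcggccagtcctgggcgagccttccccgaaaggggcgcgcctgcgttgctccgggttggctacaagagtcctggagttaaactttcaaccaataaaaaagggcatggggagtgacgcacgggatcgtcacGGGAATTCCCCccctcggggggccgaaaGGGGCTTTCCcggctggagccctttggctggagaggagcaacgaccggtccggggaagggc
Tnfaip3, GRCm38.p6 chr10:19015361-19015660, minus strand: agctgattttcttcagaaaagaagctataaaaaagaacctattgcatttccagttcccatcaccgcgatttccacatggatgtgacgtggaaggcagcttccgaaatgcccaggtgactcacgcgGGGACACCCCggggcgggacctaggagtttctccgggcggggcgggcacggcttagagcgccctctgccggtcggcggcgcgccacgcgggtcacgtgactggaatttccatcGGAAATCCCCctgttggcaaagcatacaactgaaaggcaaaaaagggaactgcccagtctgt
Tbk1, GRCm38.p6 chr10:121586745-121587044, minus strand: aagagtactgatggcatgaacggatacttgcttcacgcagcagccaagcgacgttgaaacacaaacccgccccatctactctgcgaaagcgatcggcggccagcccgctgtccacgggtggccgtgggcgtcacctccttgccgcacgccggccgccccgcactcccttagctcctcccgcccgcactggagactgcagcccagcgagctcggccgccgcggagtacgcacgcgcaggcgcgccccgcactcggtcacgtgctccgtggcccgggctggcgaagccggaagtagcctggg
The match in Nfkbia begins 29 bases before the start, those in Tnfaip3 125 and 12 bases before it, and those in Nfkb2 39 and 11 bases before it. The first run of capitals in Nfkb2 holds 2 overlapping matches, for 3 in all. For Nfkb2 and Tnfaip3 the table gives several start sites, and the window with the most matches is printed. The window of Tbk1 holds none of these letters, which says nothing about binding elsewhere.

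None of the NF-kB pathway and TNF response genes passed the test. Values are normalised reads, whole reads recovered from the deposited base means and divided by the authors' size factors. Of the 34 genes with values, 29 reached a base mean of 10 and were tested, with 0 higher and 0 lower at an adjusted p under 0.05 (limma on the deposited log2 values, adjusted over all 8562 tested genes). Over all tested genes 2.14% were called, 1.3% higher and 0.841% lower, so a count of 0 among 29 is near this background. The smallest adjusted p among the 29 was 0.278 (limma), at Nfkbia. An unadjusted p under 0.05 (limma) was found at 4 of the 29 (Nfkbia, Nfkb2, Tnfaip3 and Tbk1). Over all tested genes the share was 12.2%, so this count is near the background too. In the authors' deposited table, where 0.574% of genes with an adjusted p were called (DESeq2), 0 of the 16 members with one passed, and 0 of the 34 had an unadjusted p under 0.05, against 2.25% of all genes there.

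**Figure D1:**
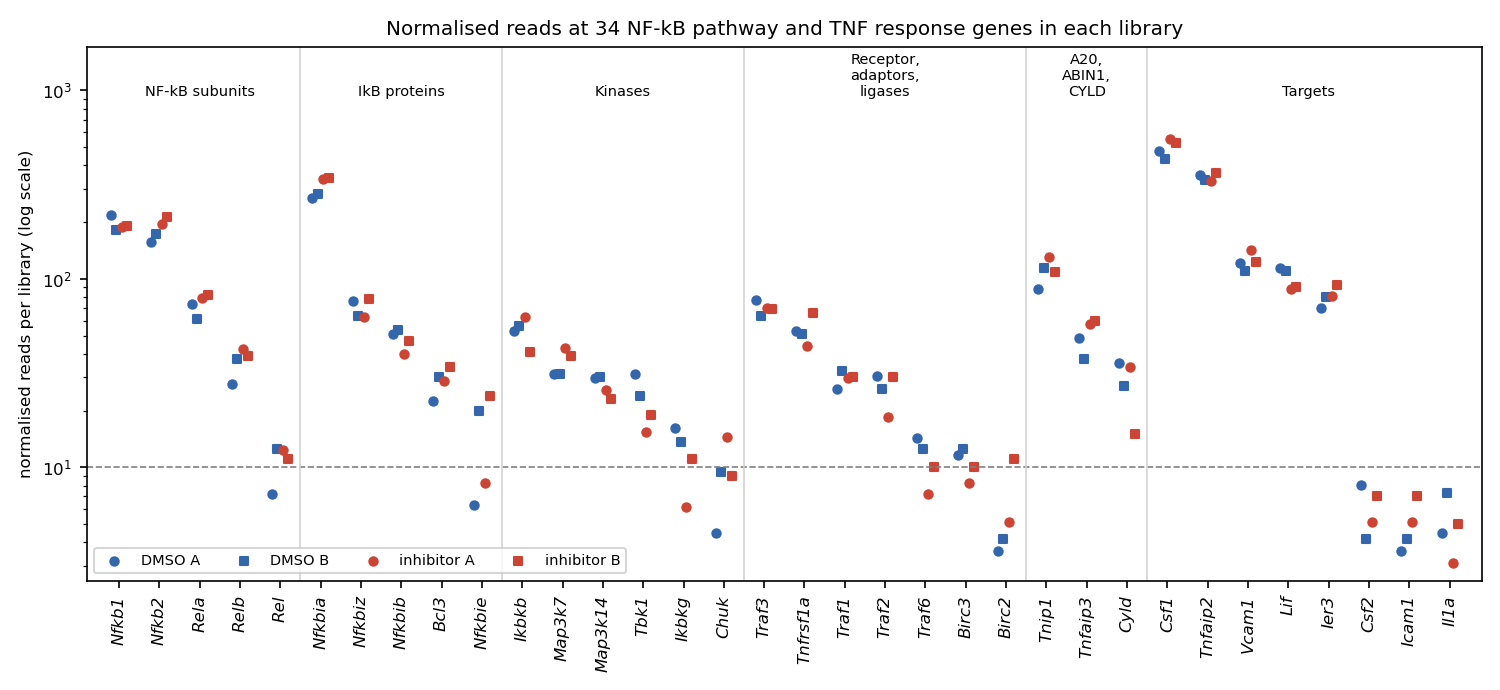
Normalised reads (log axis) at the 34 genes in DMSO A and B (blue) and inhibitor A and B (red), grouped by role and ordered by base mean, with a dashed line at 10 reads. Csf1, Tnfaip2 and Nfkbia lie highest, and at most genes the red and blue points are close beside the distance between genes.

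Sizes are given as log2 fold changes, inhibitor over DMSO, with a standard error (SE) from limma on log2 of normalised reads plus 1, a scale that understates changes of genes with few reads. Of the 29 tested genes 17 had values above 0 and 12 below 0, and their median was 0.04. Over all tested genes 50.9% were positive and the median was 0.01. The values ran from -0.77 at Ikbkg to 0.45 at Tnfaip3. In 9 genes both inhibitor libraries lay above both DMSO libraries (20.7% of all tested genes did so), in 7 both lay below (20.5%), and in 13 the groups overlapped. The 16 genes without overlap compare with 41.2% of all tested genes. The 95% interval, which is not adjusted for the number of genes, stayed within 2-fold in both directions at 22 of the 29 genes, against 77.4% of all tested genes. The other 7 were Rel, Nfkbie, Tbk1, Ikbkg, Traf6, Birc3 and Cyld, all with a base mean of 28.0 or less. For these genes a 2-fold difference lay within the interval at these read counts. The counts hold for the limma intervals only. At each tested member the authors' deposited standard error (DESeq2) was larger, such as 0.38 against 0.22 at Tnfaip3 and 0.56 against 0.33 at Tbk1. Intervals from those errors would be wider and were not computed.

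**Figure D2:**
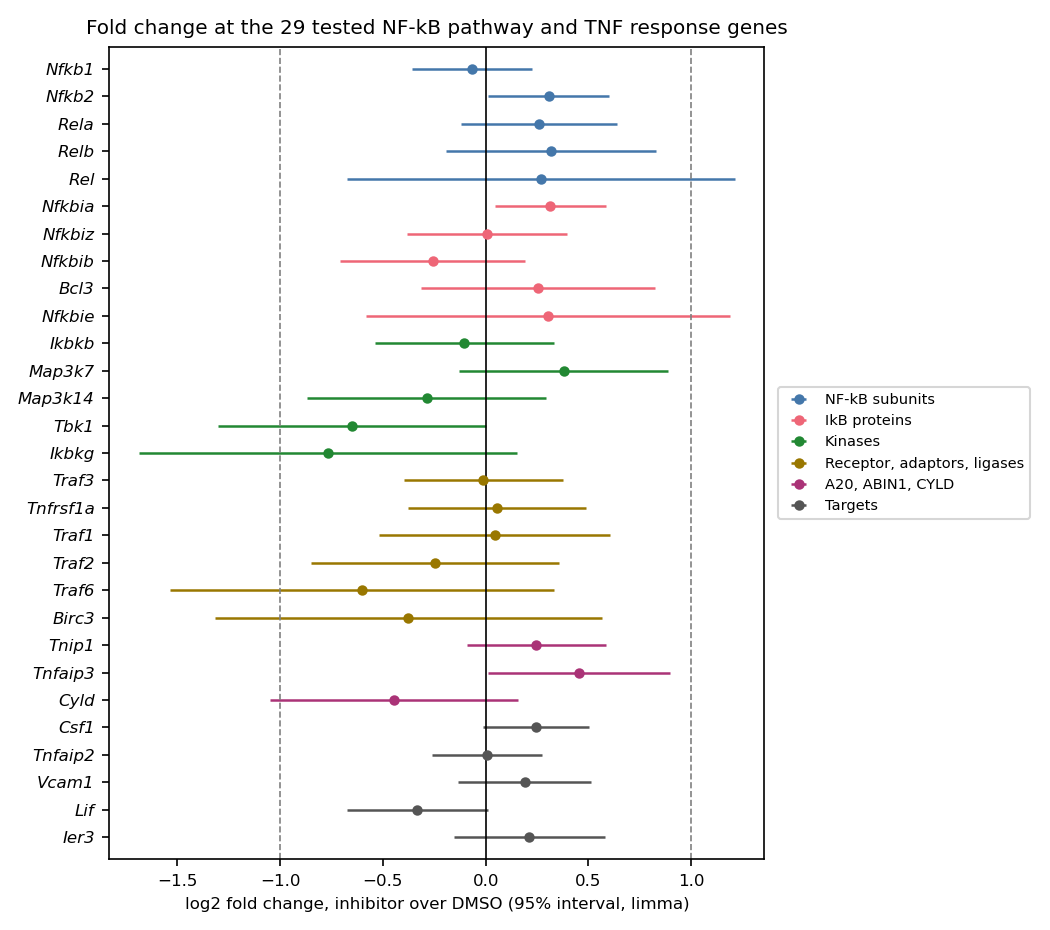
Log2 fold change, inhibitor over DMSO, with its 95% interval (limma on log2 normalised reads plus 1) at the 29 tested genes, coloured by role, with dashed lines at a 2-fold change. The intervals of Nfkbia, Nfkb2 and Tnfaip3 lie just above 0, and no gene passed after adjustment over all tested genes.

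Of the 5 subunit genes 4 had positive values, and none passed. Rela encodes p65, the main activating subunit. It had 73.6 and 61.6 normalised reads in DMSO A and B, and 79.2 and 82.1 in inhibitor A and B. Both inhibitor libraries were higher, by 0.26 ± 0.19 (SE; adjusted p = 0.666, limma), with a 95% interval from -0.12 to 0.64. Nfkb1 encodes p105, the precursor of the p50 subunit. Its reads were 217 and 182 in DMSO, and 188 and 191 with the inhibitor. DMSO A was the highest library and the groups overlapped, with a log2 fold change of -0.07 ± 0.15 (adjusted p = 0.925, limma) and an interval from -0.36 to 0.23.

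The non-canonical branch of the pathway runs through Nfkb2, which encodes p100, the precursor of p52, and its partner Relb. Nfkb2 had 157 and 172 normalised reads in DMSO, and 195 and 212 with the inhibitor. The groups did not overlap, and the log2 fold change was 0.31 ± 0.15 (adjusted p = 0.363, limma; interval 0.01 to 0.60). Relb had 27.8 and 37.6 reads in DMSO and 42.2 and 39.1 with the inhibitor. It lay higher in both inhibitor libraries, with a log2 fold change of 0.32 ± 0.26 (adjusted p = 0.714, limma). Rel, which encodes the c-Rel subunit typical of lymphocytes, had the fewest reads of the subunits, 7.18 and 12.5 in DMSO and 12.3 and 11.0 with the inhibitor. Its log2 fold change of 0.27 ± 0.48 became -0.10 without DMSO A.

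Per kilobase of exon, the mean level over the 4 libraries was 40.2 normalised reads for Nfkb2, 24.1 for Rela, 16.1 for Nfkb1, 9.44 for Relb and 1.44 for Rel. The libraries of neighbours in this order did not overlap: Nfkb2 ranged from 34.3 to 46.3, Rela from 20.05 to 26.73, Nfkb1 from 15.06 to 18.001, Relb from 7.16 to 10.9 and Rel from 0.961 to 1.68 reads per kilobase. The length used joins all annotated exons of a gene, 12061 bp at Nfkb1 and 3072 bp at Rela, and is not that of a single transcript. Without division by length the base mean was highest at Nfkb1, 195, with 184 at Nfkb2 and 74.1 at Rela. The order thus depends on the length used. It is a description of reads counted and carries the limit on strand that follows.

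Reads at Nfkb2 could not be assigned to that gene alone. Nfkb2 lies on the plus strand of mm10 chromosome 19, from 46304320 to 46312385, and its exons overlap those of 2 genes on the minus strand. At its start it shares 531 bp with AC114539.1, annotated as a long noncoding RNA of a bidirectional promoter and not analysed here. Its last exon shares 299 bp with the end of Psd (46312087 to 46327156). Psd encodes an exchange factor for the small GTPase ARF6 known mainly from brain. It held 1301 and 1612 normalised reads in DMSO and 2003 and 1905 with the inhibitor. Per kilobase of exon that is 223 reads, 5.56 times the level of Nfkb2. Both inhibitor libraries were higher at Psd too (log2 fold change 0.43 ± 0.13; adjusted p = 0.0765, limma). Psd passed with voom (adjusted p = 0.033 and 0.0171 under the 2 scalings) and without DMSO B (adjusted p = 4.22e-06, limma), and its log2 fold change was 0.28 without DMSO A. The library kit keeps strand (KAPA Stranded mRNA-Seq, per the labels). With the strand setting of the read counter not stated, which of these genes the reads came from cannot be told apart.

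**Figure D3:**
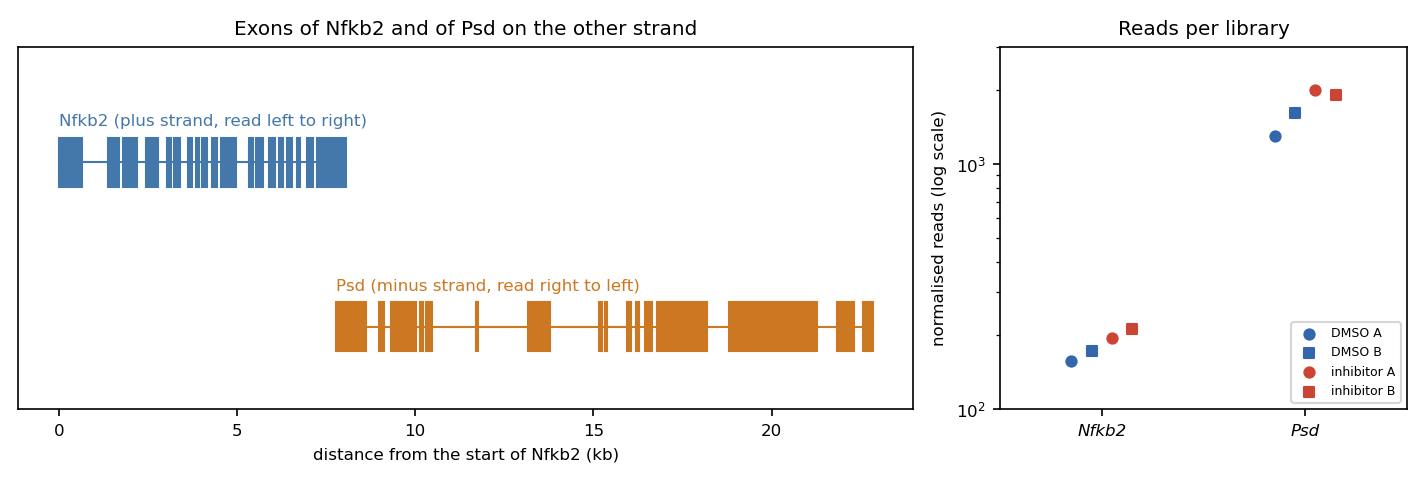
Left, exons of Nfkb2 and of Psd on the other strand, against distance from the start of Nfkb2 in kb. Right, normalised reads (log axis) at both genes in each library: 157 to 212 at Nfkb2 and 1301 to 2003 at Psd, with the inhibitor libraries above the DMSO libraries at each.

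The strand setting is unknown for every gene, so the limit is not confined to genes with an annotated overlap. Of the 34 genes with values, 9 have an exon that overlaps an annotated exon on the other strand, 6 of them among the 29 tested. Of these, Ikbkg shares 418 bp with G6pdx, which encodes glucose-6-phosphate dehydrogenase, and Nfkbib overlaps Sirt2 and Ccer2. Vcam1, Tnfaip2, Bcl3, Il1a, Icam1 and Csf2 each overlap a gene with a Gm identifier. Of all genes with values 33.5% have such an overlap, they hold 59.4% of the base-mean total, and 18 of the 20 highest base means are among them. Among the 23 tested members without an overlap, 13 were positive, the median was again 0.04, and 0 passed. The lack of an annotated overlap does not show which strand the reads of these members came from.

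Inhibitors of the IkB family were led by Nfkbia, which encodes IkB alpha, the inhibitor that NF-kB itself induces. Nfkbia (mm10 chromosome 12, 55489410 to 55492647, minus strand) had 268 and 281 normalised reads in DMSO A and B, and 339.5 and 344 in inhibitor A and B. The 2 libraries of each group lay close together and the groups were apart, 275 ± 8.87 against 342 ± 2.83 (SD, n = 2 each). That is a fold of 1.24, with a 95% interval from 1.03 to 1.499, and a log2 fold change of 0.31 ± 0.14 that did not pass (adjusted p = 0.278, limma). In the authors' deposited table Nfkbia had a log2 fold change of 0.32 and an adjusted p of 0.9997. No opposite-strand exon is annotated at Nfkbia, which does not tell the strand its reads came from.

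The other IkB genes did not share one direction. Nfkbib, encoding IkB beta, had 51.1 and 53.2 normalised reads in DMSO and 40.1 and 47.1 with the inhibitor. Both inhibitor libraries were lower, with a log2 fold change of -0.26 ± 0.23 (adjusted p = 0.750, limma). Nfkbie, encoding IkB epsilon, differed more between libraries of a group than between groups: 6.28 and 19.8 reads in DMSO, and 8.23 and 24.04 with the inhibitor. In both groups library B held about 3 times the reads of library A, by ratios of 3.16 and 2.92. Nfkbiz and Bcl3 encode nuclear IkB proteins that act as cofactors. Nfkbiz had 76.3 and 63.7 reads in DMSO and 62.8 and 78.1 with the inhibitor, fully overlapping, with a log2 fold change of 0.01 ± 0.20. Bcl3 had 22.4 and 30.3 reads in DMSO and 28.8 and 34.1 with the inhibitor, also overlapping.

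Of the genes for the IKK complex and its upstream kinases, 5 of 6 were tested, 4 of them with negative values, and none passed. Tbk1, a kinase related to IKK that also drives interferon induction, had 31.4 and 24.008 normalised reads in DMSO and 15.4 and 19.0 with the inhibitor. The groups did not overlap, and the log2 fold change was -0.65 ± 0.33 (adjusted p = 0.402, limma; interval -1.30 to 0.00). Ikbkg encodes NEMO, the regulatory subunit of IKK. Its recovered whole reads were 18 and 13 in DMSO and 6 and 11 with the inhibitor, a log2 fold change of -0.77 ± 0.46 (adjusted p = 0.534, limma). G6pdx, on the other strand, was lower in both inhibitor libraries as well (-0.44 ± 0.23; adjusted p = 0.430, limma). Map3k14 encodes NIK, the kinase of the non-canonical branch, and had 29.6 and 30.3 normalised reads in DMSO and 25.7 and 23.0 with the inhibitor.

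Map3k7, encoding TAK1, the kinase that activates IKK, went the other way. Its normalised reads were 31.4 and 31.3 in DMSO and 43.2 and 39.1 with the inhibitor, apart in the 2 groups, with a log2 fold change of 0.38 ± 0.26 (adjusted p = 0.613, limma). Ikbkb, encoding the catalytic IKK beta, had 52.9 and 56.4 reads in DMSO and 62.8 and 41.1 with the inhibitor, so both inhibitor libraries lay outside the DMSO pair on opposite sides. Chuk, encoding IKK alpha, fell short of the minimum with 5 and 9 recovered reads in DMSO and 14 and 9 with the inhibitor.

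At the TNF receptor gene and the adaptor genes, 6 of 7 were tested, 2 had positive and 4 negative values, and none passed. Tnfrsf1a encodes the main TNF receptor. It had 52.9 and 51.1 normalised reads in DMSO and 44.2 and 66.1 with the inhibitor, a log2 fold change of 0.06 ± 0.22 (adjusted p = 0.945, limma; interval -0.38 to 0.49). Traf3, which restrains the non-canonical branch, had 77.2 and 63.7 reads in DMSO and 70.0 and 69.1 with the inhibitor. Both inhibitor libraries fell between the DMSO libraries, as they also did at Traf1 (26.0 and 32.4 in DMSO, 29.8 and 30.0 with the inhibitor).

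Traf2, Traf6 and Birc3 had negative values. Traf2, an adaptor of TNF receptors, had 30.5 and 26.1 normalised reads in DMSO and 18.5 and 30.0 with the inhibitor, which overlapped. Traf6, the ubiquitin ligase of interleukin-1 and Toll-like receptors, had 16 and 12 recovered reads in DMSO and 7 and 10 with the inhibitor. The log2 fold change of Traf6 was -0.60 ± 0.47 (adjusted p = 0.670, limma), with an interval from -1.53 to 0.33. Birc2 and Birc3 encode the ubiquitin ligases cIAP1 and cIAP2. Birc3 had 13 and 12 recovered reads in DMSO and 8 and 10 with the inhibitor, and Birc2, under the minimum, 4 and 4 in DMSO and 5 and 11 with the inhibitor.

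Among genes whose products end the response, Tnfaip3 and Tnip1 had positive and Cyld a negative value. Tnfaip3 encodes A20, a ubiquitin-editing enzyme that NF-kB induces. It had 48.4 and 37.6 normalised reads in DMSO and 57.6 and 60.1 with the inhibitor. The groups did not overlap, with a log2 fold change of 0.45 ± 0.22 (adjusted p = 0.408, limma; interval 0.01 to 0.90). Tnip1, whose product ABIN1 binds A20, had 87.9 and 115 reads in DMSO and 131 and 109 with the inhibitor, a difference of 0.25 ± 0.17 with overlapping groups. Cyld, a deubiquitinase, had 35.9 and 27.1 reads in DMSO and 33.95 and 15.02 with the inhibitor. Its log2 fold change of -0.45 ± 0.31 rested on inhibitor B and was 0.12 without it.

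Csf1 held the most reads of all 34 genes. It encodes macrophage colony-stimulating factor and lies on mm10 chromosome 3 from 107741048 to 107760469 (minus strand), with no opposite-strand exon. It had 477 and 434 normalised reads in DMSO and 549 and 529 with the inhibitor, 456 ± 30.4 against 539 ± 14.6 (SD, n = 2 each). The inhibitor libraries lay above, with a log2 fold change of 0.24 ± 0.13 (adjusted p = 0.460, limma; interval -0.02 to 0.50). Lif, encoding leukaemia inhibitory factor, a cytokine of the interleukin-6 family, went the other way, with 115 and 111 reads in DMSO and 88.5 and 90.1 with the inhibitor. Its libraries were close within each group and apart between groups, with a log2 fold change of -0.33 ± 0.17 (adjusted p = 0.424, limma; interval -0.67 to 0.01).

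The remaining tested targets were Vcam1, Ier3 and Tnfaip2. Vcam1, a cell adhesion molecule for leukocytes, had 121 and 111 normalised reads in DMSO and 142 and 123 with the inhibitor, a log2 fold change of 0.19 ± 0.16 (adjusted p = 0.722, limma). Ier3, an early response gene that affects cell survival, had 70.0 and 80.4 reads in DMSO and 81.3 and 93.1 with the inhibitor, a log2 fold change of 0.21 ± 0.19 (adjusted p = 0.732, limma). In both genes the lowest inhibitor library stood within about 2 reads of the highest DMSO library. Tnfaip2, a TNF-induced gene with a role in tunnelling nanotubes, had 354 and 335 reads in DMSO and 329 and 364 with the inhibitor. Its groups overlapped fully, and its interval (-0.26 to 0.27) was among the narrowest of the members.

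Classic inflammatory targets were at few reads or without values. Icam1, the adhesion molecule, had 4 and 4 recovered reads in DMSO and 5 and 7 with the inhibitor. Il1a, encoding interleukin-1 alpha, had 5 and 7 in DMSO and 3 and 5 with the inhibitor. Csf2, encoding granulocyte-macrophage colony-stimulating factor, had 9 and 4 in DMSO and 5 and 7 with the inhibitor. With Il1b, Il6 and Tnf without values, no difference in these 6 genes was detectable at this depth. Each library held 1079959 to 1176443 recovered reads over the genes with values, and the median gene had a base mean of 22.6 reads.

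**Figure D4:**
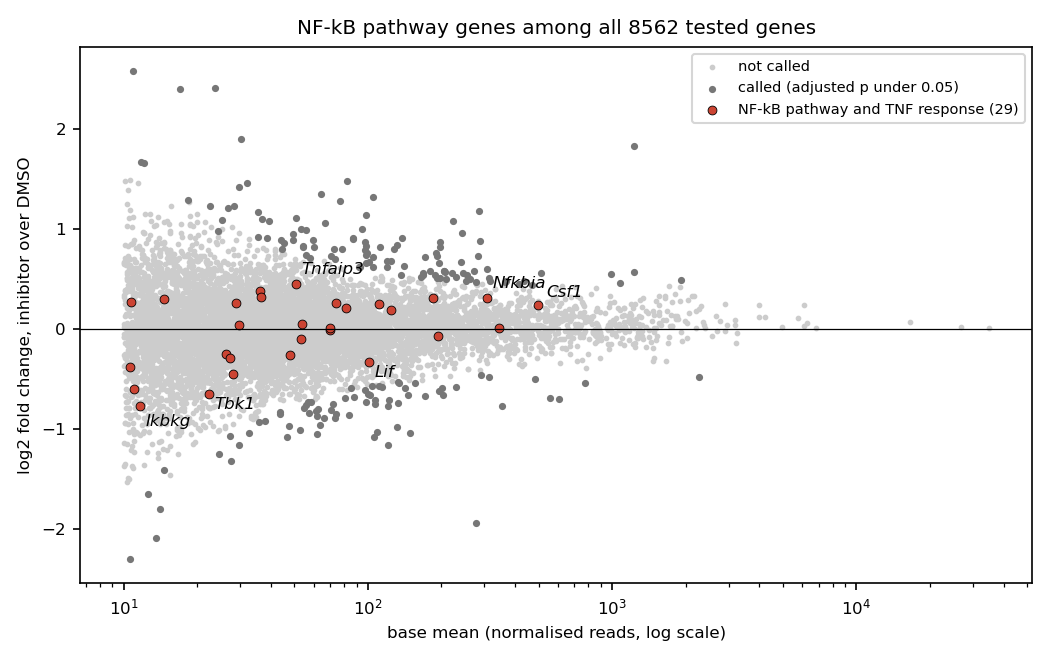
Log2 fold change, inhibitor over DMSO, against base mean (log axis) for all 8562 tested genes, with the 183 called genes in dark grey and the 29 NF-kB pathway and TNF response genes in red. The red points lie within the band of genes that were not called, from -0.77 at Ikbkg to 0.45 at Tnfaip3.

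The tested members were also listed by whether a promoter window held a kB match. Of the 14 tested members with a match, 11 lay above 0, and their median log2 fold change was 0.25. Of the 10 with a window and no match 3 were positive, with a median of -0.27. The split goes with read level: 8 of the 10 without a match, but 5 of the 14 with one, had a base mean under 50. Of these 1 of 8 without a match was positive (median -0.33) and 4 of 5 with one (median 0.27), and at a base mean of 50 or more 2 of 2 and 7 of 9. This split was made after the values were seen and none of these genes passed, so it is a description without a test. Over all tested genes no such difference was seen: 50.6% of 866 genes with a match were positive (median 0.00) and 50.8% of 6018 without one (median 0.01). Of those with a match 2.31% were called, and of those without 2.11%. Windows were found for 80.4% of the tested genes.

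Other genes of the pathway and other targets did not pass either. Of 44 other pathway components, such as receptors, adaptors and ubiquitin ligases, 35 were tested, 0 passed, 16 were positive and 19 negative, and the median was -0.05 (limma; 1 with an unadjusted p under 0.05). Those with the smallest p were Ltbr, the lymphotoxin beta receptor (0.35 ± 0.18; adjusted p = 0.400, limma), Irak1, a kinase of the interleukin-1 receptor (-0.39 ± 0.23; 0.513), and Il1r1, that receptor itself (0.74 ± 0.45; 0.514). Of 27 other NF-kB targets, 22 were tested, 0 passed, 11 were positive and 11 negative, and the median was 0.03 (limma; 5 with an unadjusted p under 0.05). Over all tested genes 12.2% had an unadjusted p under 0.05 (limma). The share was lower among the 35 components and higher among the 22 targets. No gene of either list passed in the authors' deposited table.

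Among the 22 tested other targets Plau, Cebpd and Irf1 came closest to the threshold. Plau, the urokinase-type plasminogen activator, had 76.3 and 47.0 normalised reads in DMSO and 88.5 and 96.1 with the inhibitor. It was higher in both inhibitor libraries, by 0.61 ± 0.20 (adjusted p = 0.0864, limma). The value was 0.96 without DMSO A, which passed (adjusted p = 0.0112, limma), and 0.27 without DMSO B, which did not (adjusted p = 0.687, limma). Cebpd, a C/EBP transcription factor that lies opposite Spidr, had 331 and 327 reads in DMSO and 236 and 259 with the inhibitor, a log2 fold change of -0.41 ± 0.14 (adjusted p = 0.0955, limma). Irf1, an interferon regulatory factor that lies opposite Gm17334, had 105 and 132 reads in DMSO and 160.5 and 162 with the inhibitor. Its log2 fold change of 0.45 ± 0.16 did not pass (adjusted p = 0.124, limma) except without DMSO B (adjusted p = 0.0347, limma). Lcn2, which encodes lipocalin 2, an iron-siderophore binding protein of innate immunity, was under the minimum and not tested, and is named after its values were seen. It had 8.97 and 4.18 normalised reads in DMSO and 0 and 0 with the inhibitor. Its unadjusted p of 0.0088 in the authors' deposited table was the smallest among the other targets, and that table gives it no adjusted p.

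Markers of leukocytes, fibroblasts and epithelium and the melanocyte antigen were also listed, and some of them had no values. Of 12 leukocyte markers 4 had values, with a summed level from 447 to 518 normalised reads in DMSO and from 525 to 527 with the inhibitor. Most of it lay at Csf1r, which has an opposite-strand exon, while Ptprc, Cd3e, Itgam and Adgre1 were listed without values. Fibroblast markers (4 of 6 with values) summed to 694 and 708 reads in DMSO and 933 and 828 with the inhibitor, led by Col1a1 (528 reads on average in DMSO and 714 with the inhibitor). Pdgfra of the same list was lower in both inhibitor libraries, with 65.5 and 72.02 reads in DMSO and 42.2 and 53.1 with the inhibitor (log2 fold change -0.53 ± 0.21; adjusted p = 0.233, limma). Of 7 epithelial markers 4 had values, summing to 23.0 to 27.8 reads, and Epcam, Krt18 and Cdx2 had none. Pmel had 25.1 to 35.1 reads. Its exons overlap those of Dgka and Cdk2 on the other strand, and those of Pdgfra overlap Gm42802 and Gm42803. Krt8 and Vil1 of the epithelial list have such an overlap as well. The part of these markers in the values of the NF-kB genes was not tested, and in bulk RNA fewer cells of a type and less RNA per cell cannot be told apart.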

How the data were processed

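Messenger RNA libraries were made with a stranded kit, 2 per group, per the labels' protocols. The submitters' processing notes name mm10, HISAT2 2.1.0, SAMtools 1.2, StringTie 1.3.0 and DESeq2, with no role for each. Which counter made the counts, and with which strand setting, was not given in the sources used. The authors deposited a log2 value per library, headed logCPM. These values behave as log2 normalised counts pulled toward each gene's mean. Per the file headers, the other columns hold the authors' DESeq2 base mean (a signal: counts over size factors, averaged), log2 fold change and error, Wald score, p-value and adjusted p-value.

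Size factors were worked out from the 10 lowest base means, and whole reads per library were then searched that give each base mean to 15 significant digits. A single solution was found for 12568 of 12578 genes, every member included. The search covered all placements under a base mean of 60 and a window above it. The remaining 10 genes were estimated. Between the libraries of a group, chi-square per gene averaged 2.26 in DMSO and 1.46 with the inhibitor (genes with at least 20 reads), and 1.12 and 1.41 over the members, and all 4 libraries were kept as separate samples.

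Limma 3.58.1 (R 4.3.3, trended variance, group as the only term) was fitted to the deposited log2 values over the 8562 genes whose base mean reached 10, since the table holds no counts per library. Benjamini-Hochberg adjusted p under 0.05, two-sided, made a call. The prior carried 182 degrees of freedom and the residual 2, so the error of each gene is mostly that shared by genes of like level. The search and the fit were tested on simulated data. Coordinates, exon lengths and overlaps come from GENCODE M21 (GRCm38, mm10). Of the genes with values, 12570 matched by ID. Promoter sequences are RefSeq's (GRCm38.p6), matched by symbol or synonym. Every member is accounted for. Of the lists of other genes, up to 3 with the smallest p are named. Members and lists were chosen with earlier results of these data known. Alternatives were voom, other scaling, base-mean minimums and pseudocounts, leaving out each library, the column letter as a block, and leaving out genes with an opposite-strand exon.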

Additional observations from a re-analysis of the deposited data

How the results depend on the processing

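No NF-kB pathway or TNF response gene passed under any of the 14 alternatives, and the lowest adjusted p was 0.154 (limma, genes without an opposite-strand exon). Of 373 recomputed member values 357 kept their direction. The counts over all tested genes were 111 higher and 72 lower. With voom and library-size scaling 71 were higher, and Tnfaip2 and Nfkbiz took log2 fold changes of -0.031 and -0.032. The authors' deposited table (DESeq2) gave 16 higher and 10 lower, with 11 of 16 members positive and a median of 0.14. With no minimum base mean 12 were higher and 4 lower. With a minimum of 50, 11 of 15 members were positive and their median was 0.19, over fewer genes by construction. Among genes without an opposite-strand exon 62 were higher and 47 lower. Limma on log2 of recovered reads plus 1, chosen after seeing the data, gave 105 and 65.

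Leaving out 1 library in turn gave 42 to 178 higher and 21 to 76 lower genes, and 0 to 1 of the other targets (Plau without DMSO A, Irf1 without DMSO B). Under these fits 11 members, none of them called, changed sign. Their log2 fold changes ran from -0.066 to 0.077 for Tnfaip2, -0.15 to 0.16 for Nfkbiz, -0.19 to 0.063 for Nfkb1, -0.15 to 0.13 for Traf3, -0.11 to 0.20 for Traf1, -0.10 to 0.63 for Rel, -0.45 to 1.06 for Nfkbie, -0.58 to 0.088 for Traf2, -0.23 to 0.34 for Tnfrsf1a, -0.40 to 0.20 for Ikbkb and -1.01 to 0.12 for Cyld. The cause was not tested. The columns carry letters and not the replicate numbers of the labels. With the letter as a replicate block, added after seeing the data, 133 genes were higher and 94 lower, 0 members passed, and Psd passed (adjusted p = 0.0411, limma). The B minus A differences of the 2 groups correlated at 0.038 across 8562 genes. Of these genes 4743 had a base mean under 50, and at few reads a low correlation cannot tell whether the letters mark pairs.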
